A study of Mus musculus with 6 samples.

Results

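The Hox genes were examined here as 1 family of transcription factors in MC3T3-E1 cells, an established pre-osteoblast line derived from the calvaria (skull cap) of newborn mice. Members were the genes on the array whose symbol, read from the RefSeq transcript each probe was designed against, is Hox followed by a cluster letter from a to d and a number. This rule used no measured value. It found 39 genes, measured by 43 probes, among 20659 named genes: 11 in HoxA on chromosome 6, 10 in HoxB on chromosome 11, 9 in HoxC on chromosome 15 and 9 in HoxD on chromosome 2. The cells had been grown for 3 days on a De-HA scaffold (the FeMnSi alloy after dealloying and a bioactive coating) or on the untreated FeMnSi scaffold. Each group had 3 samples, and the RNA of each was labelled with Cy3 and hybridised to a 1-colour Agilent array. All 6 samples shared the cell line and the culture time, so no sample grown without a scaffold was compared. The labels do not say whether the 3 samples of a group came from separate cultures, and the p-values below therefore measure the spread between these samples only. The series title names bone and blood vessel differentiation as the subject, and the question asked here is which Hox genes these cells carried and whether their levels differed between the scaffolds.

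Hox genes encode homeodomain proteins that give cells along the body axis and the limbs their regional identity. They lie in clusters whose gene order matches the order of their expression: low numbers act towards the head, high numbers towards the tail and the tips of the limbs, and genes of the same number in different clusters are paralogs. Their proteins bind DNA together with cofactors of the Pbx and Meis families, Polycomb proteins keep the clusters silent where they are not needed, and retinoic acid opens the head end. Much of the skull cap forms from cranial neural crest that lacks Hox expression, whereas bone of the trunk and limbs forms from Hox-expressing cells.

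The RefSeq promoter table (build GRCm38.p6) held windows of 300 bases for 22 of the 39 genes, 13 of them among the genes tested below. The windows run from 250 bases before the annotated start to 50 after it. The 24 Hox windows held a median of 14.5 CpG dinucleotides, against a median of 7 over all 32851 windows in the table, and 70.8% of them held at least 10, against 43.5% of all windows. Windows of Hoxa13, Hoxd10, Hoxd11 and Hoxa9 are shown because these are posterior genes on which the comparison below turns, and each window is written 5′ to 3′ on the gene's strand with its CpG dinucleotides in capitals. The Hoxa13 window (chr6:52260831-52261130, minus strand) held 45 CpG dinucleotides, the highest count among the Hox windows. The Hoxd10 window (chr2:74691641-74691940, plus strand) held 22, and the downstream of 2 Hoxd11 windows (chr2:74682073-74682372, plus strand) held 25. The Hoxa9 window (chr6:52227321-52227620, minus strand) held 4, the lowest count, as did the upstream Hoxd11 window and that of Hoxd4.
Hoxa13: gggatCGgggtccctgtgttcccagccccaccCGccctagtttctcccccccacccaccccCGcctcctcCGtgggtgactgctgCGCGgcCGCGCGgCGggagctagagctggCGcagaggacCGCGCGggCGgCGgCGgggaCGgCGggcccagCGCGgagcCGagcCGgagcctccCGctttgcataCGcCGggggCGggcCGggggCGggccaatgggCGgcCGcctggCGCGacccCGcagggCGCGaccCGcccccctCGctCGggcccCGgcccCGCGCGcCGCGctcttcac
Hoxd10: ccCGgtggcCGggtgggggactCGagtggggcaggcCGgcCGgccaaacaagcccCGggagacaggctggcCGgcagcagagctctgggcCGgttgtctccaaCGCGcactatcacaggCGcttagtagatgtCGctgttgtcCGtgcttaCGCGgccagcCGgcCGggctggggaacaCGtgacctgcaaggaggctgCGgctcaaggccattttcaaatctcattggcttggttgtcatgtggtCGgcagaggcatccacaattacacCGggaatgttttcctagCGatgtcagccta
Hoxd11: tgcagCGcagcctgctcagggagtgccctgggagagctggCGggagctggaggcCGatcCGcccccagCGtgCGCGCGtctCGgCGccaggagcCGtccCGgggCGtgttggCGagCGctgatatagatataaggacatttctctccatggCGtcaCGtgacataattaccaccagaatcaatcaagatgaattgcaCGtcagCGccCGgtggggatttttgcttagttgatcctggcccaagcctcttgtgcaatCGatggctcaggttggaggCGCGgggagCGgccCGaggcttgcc
Hoxa9: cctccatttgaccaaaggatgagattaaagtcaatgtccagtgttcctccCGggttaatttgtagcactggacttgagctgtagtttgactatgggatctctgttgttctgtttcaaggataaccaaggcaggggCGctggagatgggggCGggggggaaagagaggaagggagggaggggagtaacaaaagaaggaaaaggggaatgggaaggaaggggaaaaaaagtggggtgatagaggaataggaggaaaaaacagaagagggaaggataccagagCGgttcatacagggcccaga
A search on both strands for TTTAT, a core that posterior Hox proteins bind, found it in 9 of the 24 Hox windows (37.5%), against 40.0% of all windows. TGATNNAT, a composite site of Pbx and Hox proteins, was found in 4 of 24 (16.7%), against 8.85% of all windows. Both motifs were chosen after expression values had been seen. A match describes letters only, and none of the 4 windows printed above held TTTAT. The upstream Hoxd11 window, not printed, held it at 2 places and had 4 CpG dinucleotides.

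A spot counted as detected where the scanner software marked it well above background, and the detection pattern differed by cluster. HoxA was the most widely detected, with 10 of 11 genes well above background on all 6 arrays. HoxB had 4 of 10, HoxC 5 of 9 and HoxD 0 of 9. The only HoxA gene missing from every array was Hoxa11, a regulator of the forearm skeleton, and its probe, printed as 10 spots, was called above background on none. In HoxB the genes on all 6 arrays were Hoxb3 to Hoxb6, a stretch from the anterior to the central cluster. In HoxC they were Hoxc4, Hoxc5, Hoxc9, Hoxc10 and Hoxc12. The 2 HoxD genes detected at all were Hoxd10 and Hoxd11, each on 4 of 6 arrays. Detection on all 6 arrays reached 19 of 39 Hox genes (48.7%), against 67.2% of all named genes. Hox genes were therefore detected in both the head-end and tail-end parts of the clusters in this calvarial line: 4 of 8 genes at positions 1 to 3, 9 of 15 at positions 4 to 8 and 6 of 16 at positions 9 to 13 were above background on all 6 arrays. Detection means this flag only, which 4 of 6 epithelial and 4 of 6 neural marker genes also carried on all 6 arrays.

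**Figure D1:**
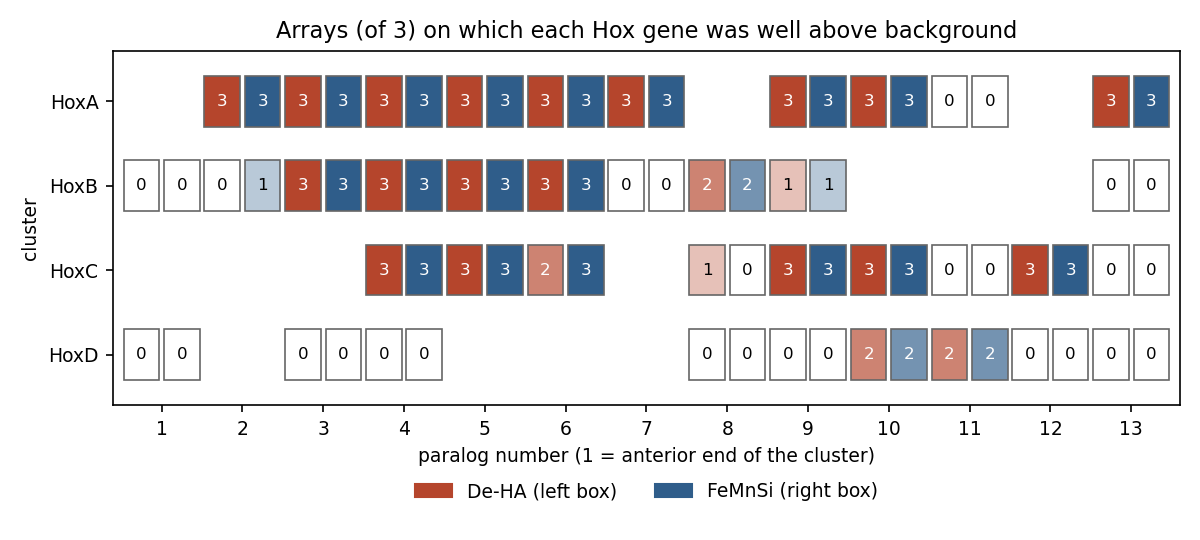
Number of arrays, of 3, on which each Hox gene was well above background in De-HA cultures (left, red) and FeMnSi cultures (right, blue), by cluster (rows) and paralog number (horizontal axis). Darker boxes mean more arrays, and positions without a box hold no gene or are not shown. Every HoxA gene shown is filled except Hoxa11, whereas HoxD holds detected genes at positions 10 and 11 only.

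Counts of detected genes were close on the 2 scaffolds: 25 Hox genes were detected on at least 1 De-HA array and 25 on at least 1 FeMnSi array. On all 3 arrays of a group, 19 were detected with De-HA and 20 with FeMnSi. Another 3 genes were detected too rarely to test. Hoxb2, a hindbrain gene, had signals of 12.1, 6.98 and 13.4 on De-HA arrays 1, 2 and 3 and of 14.4, 15.7 and 10.4 on FeMnSi arrays 1, 2 and 3, and was above background on FeMnSi 2 alone. Hoxb9, a thoracic gene, had 16.0, 21.3 and 10.98 on De-HA arrays and 3.21, 23.5 and 13.5 on FeMnSi arrays, and was above background on array 2 of each group. Hoxc8, which patterns the thoracic skeleton, had 11.1, 12.6 and 12.1 on De-HA arrays and 12.3, 6.66 and 7.76 on FeMnSi arrays, and was above background on De-HA 2 alone. The groups overlapped for all 3 genes. Here and below, a signal is the processed intensity scaled to a common 75th percentile, and signals of different probes cannot be ranked as levels of different genes.

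A further 13 Hox genes were called well above background on none of the 6 arrays: Hoxa11, Hoxb1, Hoxb7, Hoxb13, Hoxc11, Hoxc13, Hoxd1, Hoxd3, Hoxd4, Hoxd8, Hoxd9, Hoxd12 and Hoxd13. Of these, 7 are HoxD genes, and 7 lie at positions 9 to 13. Their median signal lay between 4.09 and 5.98 on the De-HA arrays and between 3.17 and 3.56 on the FeMnSi arrays. The lowest signal called above background was 22.9, 12.1 and 13.2 on De-HA arrays 1, 2 and 3 and 14.5, 11 and 13.4 on FeMnSi arrays 1, 2 and 3, so the background floor was not the same on every array. De-HA 1 had the highest floor, the lowest share of named genes above background (68.4%, against 77.6% and 77.4% on the other De-HA arrays and 73.2% to 76.8% on FeMnSi arrays) and 19 detected Hox genes. It also gave the highest signal for 11 of the 13 undetected genes. The part that its background played in the dim Hox genes was not tested. Without De-HA 1, the differences described below turned sign for Hoxa10 and Hoxc10.

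The comparison of De-HA with FeMnSi covered the 23 Hox genes with a probe above background on at least 3 of 6 arrays. None of the 23 passed an adjusted p of 0.05 in either direction in limma's fit over all 15535 genes, whereas 10.7% of all genes passed, 6.46% higher and 4.29% lower on De-HA. At an unadjusted p under 0.05 there were 6 Hox genes (Hoxa9, Hoxa13, Hoxc12, Hoxd10 and Hoxd11 higher, Hoxb3 lower), or 6 of 23 against 33.6% of all genes. The 3 De-HA arrays lay wholly apart from the 3 FeMnSi arrays for 7 of 23 Hox genes, against 39.1% of all genes. Of the 7, 4 were higher on De-HA (Hoxa9, Hoxa13, Hoxc12 and Hoxd11), where 25.4% of all genes were so placed, and 3 were lower (Hoxa3, Hoxb3 and Hoxc6), where 13.7% were. The median log2 difference of the 23 genes was 0.15, against 0.10 over all genes, and 7 lay below 0, where 36.9% of all genes did. In these bulk samples, fewer cells that express a gene and less RNA per cell cannot be told apart.

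The intervals come from the fit to all arrays, which held no slide term, and cover the spread between these samples only. The 95% interval of the difference lay within 2-fold in either direction for 19 of 23 Hox genes, against 87.6% of all genes, and within 1.5-fold for 8. It included 0 for 17. The scan times split the arrays into 2 sets, called slides here, although no slide label was used. Slide 1 held all 3 De-HA arrays and FeMnSi 1, and slide 2 held FeMnSi 2 and FeMnSi 3. FeMnSi 1 lay within the range of the De-HA arrays for 12 of 23 Hox genes (52.2%, against 34.9% of all genes), FeMnSi 2 for 2 (8.7%, against 19.6%) and FeMnSi 3 for 5 (21.7%, against 24.5%). The median over the Hox genes within slide 1 was -0.023, against 0.051 over all genes. The slide and the scaffold overlap in this design, and Hox differences below are therefore given with their value within slide 1, where the single FeMnSi array stands for its group. Without FeMnSi 1, the De-HA arrays were all on slide 1 and the FeMnSi arrays all on slide 2. Scaffold and slide therefore cannot be told apart in that fit, here and below. In it, 6 of 23 Hox genes passed an adjusted p of 0.05, against 29.7% of all genes.

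**Figure D2:**
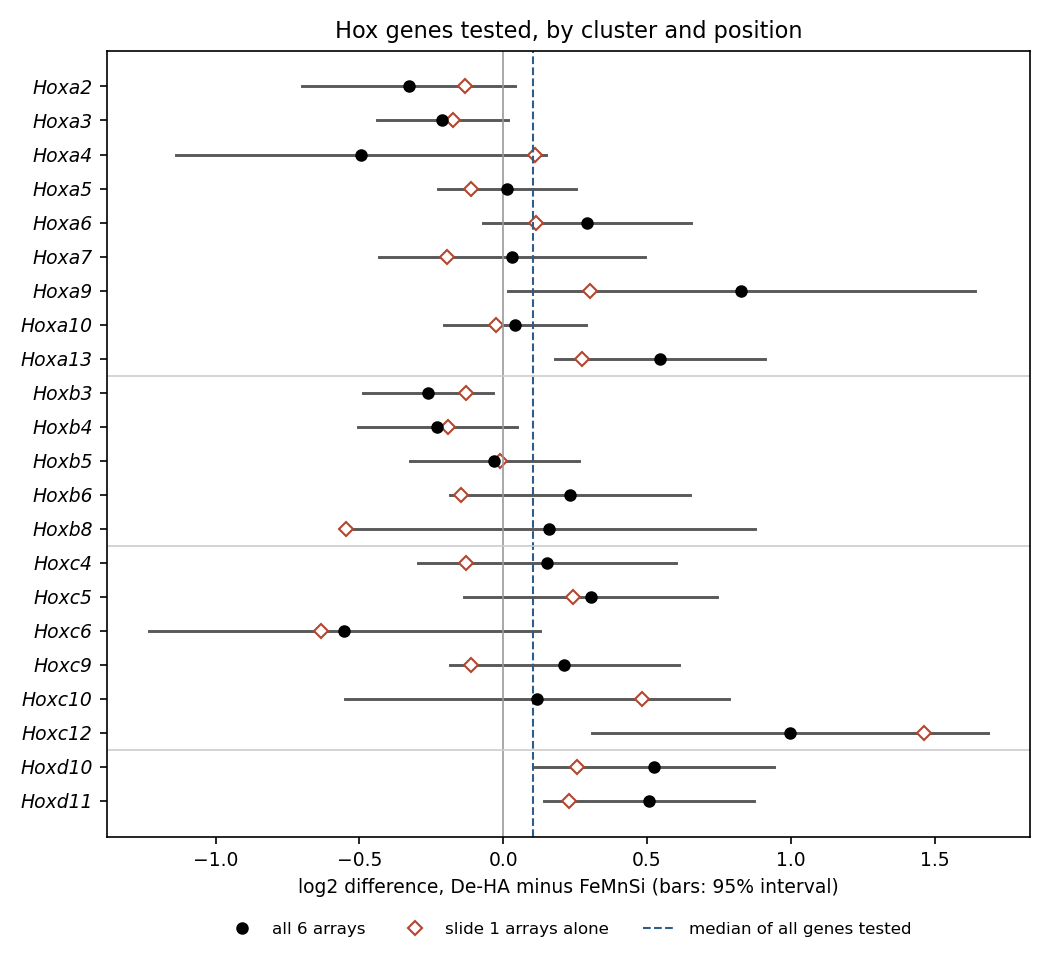
Log2 difference in signal, De-HA minus FeMnSi, for 22 of the 23 Hox genes tested, ordered by cluster and position. Filled circles are the fit to all 6 arrays with 95% intervals (bars), open diamonds the slide 1 arrays alone, and the dashed line the median over all genes tested (0.10). Genes at positions 9 to 13 lie to the right of 0 in the fit to all arrays, and the diamonds of Hoxc9 and Hoxa10 lie to its left.

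By position, the 8 posterior genes tested (positions 9 to 13) were all higher on De-HA, with a median log2 difference of 0.52. The 11 central genes (positions 4 to 8) had a median of 0.029, with 7 higher, and the 4 anterior genes (positions 1 to 3) a median of -0.24, with 1 higher. Over all genes tested, 9806 of 15535 were higher on De-HA. Within slide 1 the posterior median was 0.27, with 6 of 8 higher, and quantile normalization also gave 0.27 with 6 of 8 higher. Without De-HA 1 it was 0.42, with 6 of 8 higher, and with a model-based background correction (normexp) it was 0.073. The order of the 3 position groups was described after values had been seen and was not tested. Brightness also differed between the 3 position groups. When all genes were cut into 4 equal bins of brightness, 4 of 8 posterior, 8 of 11 central and 0 of 4 anterior Hox genes lay in the dimmest bin, where the median difference over all genes was 0.23 and 71.1% of genes were higher on De-HA. The 12 Hox genes of that bin had a median of 0.20, with 0.52 for the 4 posterior and 0.087 for the 8 central ones. The part of brightness in these values was not tested.

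**Figure D3:**
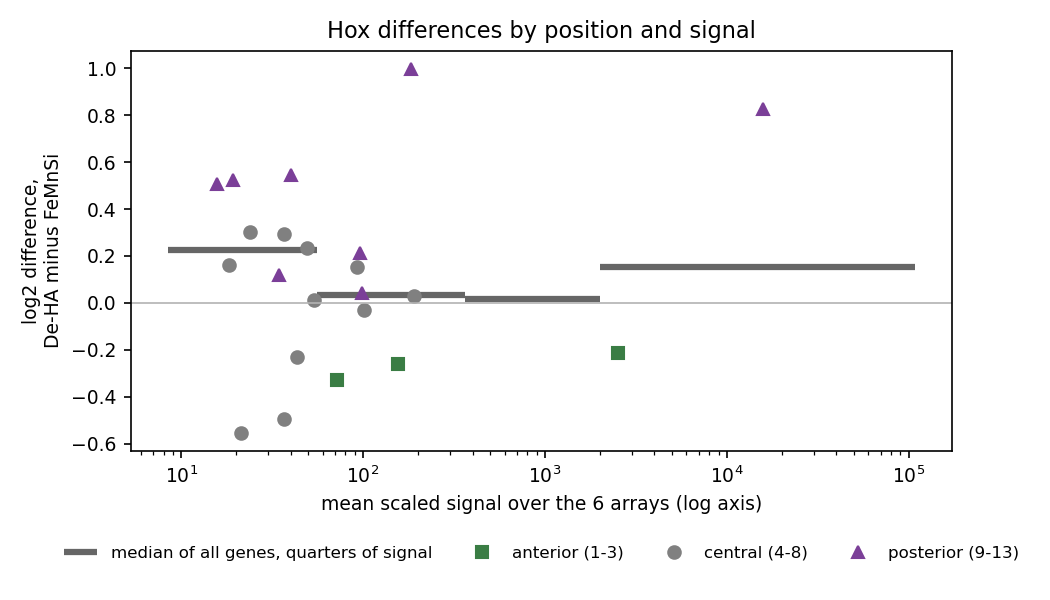
Log2 difference, De-HA minus FeMnSi, of 22 of the 23 Hox genes tested against the mean brightness of its probe (log axis, intensity units). Squares are anterior, circles central and triangles posterior genes, and grey bars give the median difference of all genes in each of 4 bins of brightness. The dimmest bin has a median of 0.23, and Hoxc12 and Hoxa9 are the posterior genes that lie above 0.8 outside it.

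Hoxc12, a posterior HoxC gene known for its role in hair follicles, had the largest difference among the Hox genes tested. Its signal was 260.5, 261.4 and 258.9 on De-HA arrays and 94.4, 109.3 and 215.1 on FeMnSi arrays. All De-HA arrays lay above all FeMnSi arrays, the De-HA values were nearly equal, and FeMnSi 3 lay closer to them than FeMnSi 1 and 2 did. The log2 difference was 1.00 ± 0.29 (SE, n = 3 arrays each, here and below; adjusted p = 0.0706 in limma's fit) and 1.46 within slide 1. The adjusted p was 0.0141 without FeMnSi 3, with a log2 difference of 1.36, and 0.0394 when the variance was allowed to follow brightness. Those 2 settings called 1.46% and 15.4% of all genes. With the slide as a block the adjusted p of Hoxc12 was 0.099. Leaving out 1 array at a time gave differences from 0.76 to 1.36.

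Hoxa13, which patterns the digits and the genital tract and whose CpG-dense promoter window is printed above, had 56.6, 44.7 and 45.5 on De-HA arrays and 40.2, 31.4 and 29.4 on FeMnSi arrays. All De-HA arrays lay above all FeMnSi arrays, and the arrays numbered 1 were the highest of each group. The log2 difference was 0.55 ± 0.15 (adjusted p = 0.0664 in limma's fit, the smallest among Hox genes) and 0.28 within slide 1. Its second probe had 36.4, 20.7 and 23.8 on De-HA arrays and 23.3, 15.7 and 16.5 on FeMnSi arrays, a difference of 0.52 (0.17 within slide 1) in which the groups overlapped. Without FeMnSi 1 the first probe's difference was 0.68 with an adjusted p of 0.0199.

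The posterior HoxD genes were dim. Hoxd11, which with Hoxa11 shapes the forearm, had 21.6, 17.1 and 18.1 on De-HA arrays and 16.1, 12.5 and 11.6 on FeMnSi arrays. The groups did not overlap, but the spots of De-HA 1 and FeMnSi 3 were not well above background. Its log2 difference was 0.51 ± 0.15 (adjusted p = 0.0777 in limma's fit) and 0.23 within slide 1. Hoxd10, active in limbs and lumbar spinal cord, had 25.4, 18.95 and 26.0 on De-HA arrays and 19.45, 15.6 and 13.8 on FeMnSi arrays. De-HA 2 lay below FeMnSi 1, so the groups overlapped, and again De-HA 1 and FeMnSi 3 were not well above background. Its difference was 0.53 ± 0.17 (adjusted p = 0.0942 in limma's fit) and 0.26 within slide 1. Both genes passed without FeMnSi 1, Hoxd11 with a difference of 0.65 and adjusted p = 0.0205 and Hoxd10 with 0.66 and 0.0324.

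Hoxa9, a driver of blood progenitor growth and of leukaemia, was measured by 2 probes that gave different pictures. The brighter probe had 18260, 23840 and 21320 on De-HA arrays and 17070, 6645 and 14640 on FeMnSi arrays. The groups did not overlap, and FeMnSi 2 lay far below the other 5 arrays. The log2 difference was 0.83 ± 0.34 (adjusted p = 0.144 in limma's fit), 0.30 within slide 1 and from 0.41 to 1.09 when 1 array was left out, the lower value without FeMnSi 2. The other probe had 39.9, 35.2 and 36.0 on De-HA arrays and 39.1, 33.5 and 28.5 on FeMnSi arrays, which overlapped, with a difference of 0.15 that turned to -0.081 within slide 1.

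Groups overlapped for the remaining posterior genes. Hoxa10, which shapes the lumbar spine and is known to act on osteoblast genes, had 109.5, 91.3 and 100.2 on De-HA arrays and 101.7, 100.3 and 90.2 on FeMnSi arrays, a log2 difference of 0.040 ± 0.10. Hoxc9, a thoracic gene that sets motor neuron identity, had 92.9, 100.6 and 117.5 on De-HA arrays and 111.4, 75.3 and 84.1 on FeMnSi arrays, a difference of 0.21 ± 0.17. Hoxc10, a lumbar and hindlimb gene, had 52.8, 26.9 and 32.9 on De-HA arrays and 25.8, 33.5 and 42.3 on FeMnSi arrays, a difference of 0.12 ± 0.28. The De-HA 1 value of Hoxc10 lay above its 5 other values. Within slide 1 the differences were -0.023 for Hoxa10, -0.11 for Hoxc9 and 0.48 for Hoxc10, so the sign of the first 2 turned. Without De-HA 1 they were -0.025 for Hoxa10 and -0.16 for Hoxc10.

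**Figure D4:**
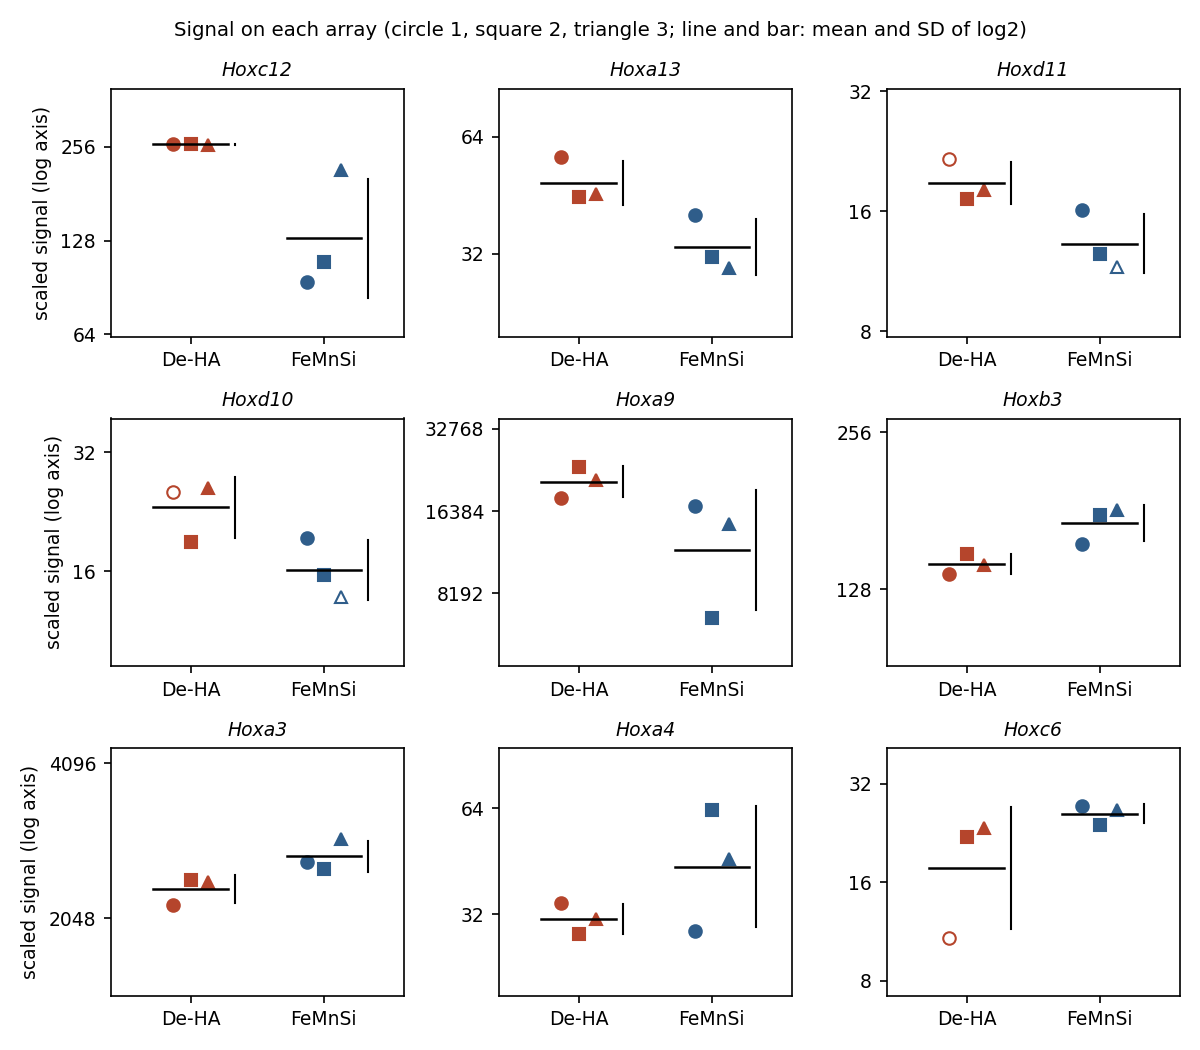
Scaled signal (log axis) of 9 Hox genes on each array, De-HA left in red and FeMnSi right in blue, with replicate 1 as a circle, 2 as a square and 3 as a triangle. Open symbols mark spots not well above background, and the line and bar give the mean and SD on the log2 scale. The genes drawn were picked to include all 7 of the 23 tested Hox genes whose groups do not overlap, against 39.1% of all genes. The groups overlap for the other genes drawn, Hoxd10 and Hoxa4.

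Groups also lay apart for 3 genes with lower values on De-HA. Hoxb3, active in the hindbrain and the pharyngeal arches, had 136.7, 149.4 and 142.6 on De-HA arrays and 156.1, 177.6 and 181.2 on FeMnSi arrays. Every De-HA array lay below every FeMnSi array, with FeMnSi 1 nearest to the De-HA values. This was a log2 difference of -0.26 ± 0.095 (adjusted p = 0.113 in limma's fit), of -0.13 within slide 1 and of -0.33 with adjusted p = 0.0394 without FeMnSi 1. A dimmer probe of Hoxb3 had the opposite sign, with 31.8, 31.6 and 27.9 on De-HA arrays and 29.8, 25.2 and 23.8 on FeMnSi arrays, a difference of 0.22 (0.027 within slide 1).

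Hoxa3, required for the thymus and the parathyroid, had 2170, 2429 and 2403 on De-HA arrays and 2632, 2555 and 2924 on FeMnSi arrays. The groups did not overlap, and the log2 difference was -0.21 ± 0.096 (adjusted p = 0.169 in limma's fit) and -0.18 within slide 1. Normexp turned it to 0.94, and the local background of this spot on FeMnSi 3 was 2809, against 12 to 18 on the other 5 arrays. Hoxc6, a thoracic gene, had 10.8, 21.9 and 23.3 on De-HA arrays and 27.4, 23.95 and 26.5 on FeMnSi arrays. The groups did not overlap, and De-HA 1 lay lowest and was not well above background. The log2 difference was -0.55 ± 0.29 (adjusted p = 0.211 in limma's fit), -0.63 within slide 1 and -0.20 without De-HA 1.

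Hoxa2, an anterior gene which specifies the skeleton of the second pharyngeal arch and holds back bone formation there, had 73.7, 55.3 and 64.0 on De-HA arrays and 70.0, 95.5 and 77.2 on FeMnSi arrays. The groups overlapped, with De-HA 1 above FeMnSi 1, and the difference was -0.33 ± 0.16, or -0.13 within slide 1.

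The central HoxA genes pattern the neck and thorax. Hoxa4 had 34.3, 28.1 and 30.9 on De-HA arrays and 28.7, 63.2 and 45.9 on FeMnSi arrays. FeMnSi 1 lay within the De-HA range and the other FeMnSi arrays above it, so the difference of -0.49 ± 0.27 became 0.11 within slide 1 and -0.80 (adjusted p = 0.0227 in limma's fit) without FeMnSi 1. Hoxa5 had 52.6, 58.7 and 51.7 on De-HA arrays and 58.65, 49.9 and 53.05 on FeMnSi arrays, a difference of 0.014 ± 0.10. Hoxa6 had 48.2, 34.0 and 40.3 on De-HA arrays and 37.3, 30.1 and 32.1 on FeMnSi arrays, a difference of 0.29 ± 0.15. Hoxa7 had 171.3, 190.9 and 214.7 on De-HA arrays and 219.4, 216.4 and 139.2 on FeMnSi arrays, a difference of 0.029 ± 0.19. The groups overlapped for all 4 genes, and within slide 1 the differences were -0.11 for Hoxa5, 0.11 for Hoxa6 and -0.20 for Hoxa7. Hoxa6 had a difference of 0.16 without De-HA 1.

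Among central HoxB genes, Hoxb4, known for expanding blood stem cells, had 35.2, 39.4 and 46.2 on De-HA arrays and 45.7, 48.3 and 46.8 on FeMnSi arrays, a difference of -0.23 ± 0.12 (-0.19 within slide 1). Hoxb5 had 111.0, 87.9 and 101.4 on De-HA arrays and 100.4, 113.2 and 92.9 on FeMnSi arrays, a difference of -0.031 ± 0.12 (-0.011 within slide 1). Hoxb6 had 48.7, 58.6 and 53.4 on De-HA arrays and 59.2, 38.5 and 41.3 on FeMnSi arrays, a difference of 0.23 ± 0.18. All 3 genes overlapped between the groups. Hoxb6 passed without FeMnSi 1, with a difference of 0.42 and adjusted p = 0.037 in limma's fit, and was -0.15 within slide 1. Hoxb8, known for a role in microglia and grooming, had 20.4, 18.5 and 19.3 on De-HA arrays and 28.3, 16.1 and 11.5 on FeMnSi arrays, which spread on both sides of the De-HA values. It was well above background on 4 arrays, and its difference was 0.16 ± 0.30, against -0.55 within slide 1.

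Hoxc4 had 77.6, 106.7 and 113.0 on De-HA arrays and 107.1, 74.7 and 85.3 on FeMnSi arrays, a difference of 0.15 ± 0.19 that was -0.13 within slide 1. Hoxc5 had 35.9, 23.5 and 22.2 on De-HA arrays and 22.5, 20.6 and 21.5 on FeMnSi arrays, a difference of 0.30 ± 0.19 that was 0.24 within slide 1. Both genes overlapped between the groups, and the Hoxc5 difference rested on De-HA 1, without which it was 0.086. Adjusted p-values in limma's fit were 0.18 or above for every anterior and central gene except Hoxa3 and Hoxb3.

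Genes that work with or on the Hox clusters were counted from lists of known roles. All 9 cofactor genes (the Pbx, Meis and Pknox families) were tested and none passed, with a median difference of 0.19 against 0.10 over all genes and 10.7% of all genes past the threshold. Pknox2 had 358.6, 412.4 and 452.5 on De-HA arrays and 331.6, 324.9 and 325.9 on FeMnSi arrays. These groups lay apart, with a difference of 0.31 ± 0.11 (adjusted p = 0.10 in limma's fit) and of 0.29 within slide 1.

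Of 28 Polycomb genes, which hold Hox clusters silent, 2 rose and none fell (7.14% called, against 10.7% of all genes), with a median of 0.065 against 0.10 over all genes. The 2 were Aebp2, an accessory subunit of the H3K27 methyltransferase complex (0.58 ± 0.098, adjusted p = 0.0196 in limma's fit), and Cbx7, a reader of that mark (0.38 ± 0.086, adjusted p = 0.0389). Another Aebp2 probe had a difference of 0.28, and within slide 1 the named probes gave 0.47 for Aebp2 and 0.39 for Cbx7. The largest difference of a further Polycomb probe was -1.50, for Rbbp4, whose brightest probe had -0.028. After quantile normalization Phf19 passed as lower (-0.37, adjusted p = 0.0484 in limma's fit). Of 15 Trithorax and H3K27 demethylase genes, which act against Polycomb, 1 rose: Kmt2d, an H3K4 methyltransferase, by 0.65 ± 0.10 (adjusted p = 0.0144) and 0.57 within slide 1. Its other probe had a difference of 0.17. This list had 6.67% called and a median of 0.017.

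The retinoic acid pathway was the list of Hox regulators with the highest median (0.35 over 17 genes tested, against 0.10 over all genes, and 0.18 within slide 1). Of the 17, 2 rose (11.8%, against 10.7% of all genes called). Dhrs3, which turns retinal back to retinol and is itself induced by retinoic acid, had 415.2, 379.7 and 462.9 on De-HA arrays and 242.0, 211.2 and 214.3 on FeMnSi arrays. The groups lay far apart, and the difference was 0.91 ± 0.11 (adjusted p = 0.00811 in limma's fit) and 0.79 within slide 1. Cyp26b1, which breaks retinoic acid down, had 3947, 4510 and 4695 on De-HA arrays and 2928, 2030 and 2631 on FeMnSi arrays. These groups did not overlap either, and the difference was 0.81 ± 0.15 (adjusted p = 0.0264) and 0.58 within slide 1. Among 5 tested inducers of Hox expression, 1 rose: Gdf11, by 0.57 ± 0.11 (adjusted p = 0.0283) and 0.71 within slide 1.

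Other genes of regional identity were counted too. Of 30 homeobox genes outside the clusters known from skeletal cells, 4 rose and 1 fell (16.7% called, against 10.7% of all genes), with a median of 0.21 and of 0.20 within slide 1. En1, a limb and skull patterning gene, had 219.4, 220.4 and 220.5 on De-HA arrays and 159.8, 123.5 and 164.8 on FeMnSi arrays. Its groups lay apart, by 0.57 ± 0.13 (adjusted p = 0.0378 in limma's fit) and by 0.46 within slide 1. Msx2, a regulator of skull growth, rose by 0.51 (adjusted p = 0.0393), Irx5 by 0.41 (0.0366) and Prrx2, a mesenchymal factor, by 0.33 (0.0466). Within slide 1 these were 0.43 for Msx2, 0.36 for Irx5 and 0.36 for Prrx2. Prrx2 had a difference of 0.11 and an adjusted p of 0.462 after quantile normalization, where Msx2 (0.0512) and the Polycomb gene Cbx7 (0.0523) also missed the threshold. Genes that newly passed there were all lower on De-HA. They were Phf19, Rdh10 of the retinoic acid list (-0.60, 0.0369), and the flanking genes Gpr84 (-0.57, 0.0119) and Skap2 (-0.51, 0.047). Meox1, a somite gene, fell, with 29.4, 46.3 and 35.4 on De-HA arrays and 66.9, 72.2 and 71.7 on FeMnSi arrays (difference -0.95 ± 0.17, adjusted p = 0.0213, and -0.88 within slide 1). Of 11 limb and axial genes 1 rose: Zic1, by 0.88 ± 0.17 (adjusted p = 0.026) and 0.86 within slide 1. That list had 9.09% called and a median of 0.22.

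Genes that flank the clusters on the chromosome were read as neighbours. Of 22 tested, none rose and 1 fell: Cbx1, a heterochromatin protein gene beside HoxB, with a difference of -0.51 (adjusted p = 0.0404 in limma's fit) and of -0.66 within slide 1. This was 4.55% called, and the list's median was -0.071. Of the Hox cluster noncoding RNAs, 2 were on the array and 1 was detected often enough to test. Hoxa11os, the antisense transcript of Hoxa11, had 49.96, 57.3 and 52.6 on De-HA arrays and 48.8, 42.2 and 45.9 on FeMnSi arrays, groups that lay apart with a difference of 0.22 ± 0.099 (adjusted p = 0.16) and of 0.12 within slide 1. It was well above background on all 6 arrays, whereas the Hoxa11 probe itself was on none.

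With the slide as a block, none of the 13 regulator, homeobox, positional and flanking genes named as passing kept an adjusted p under 0.05. That setting called 1.16% of all genes, against 10.7% without the block. The differences of the 13 genes within slide 1 kept their sign in 13 of 13 and were 0.718 to 1.29 times those over all arrays. With 1 array left out in turn, Dhrs3 passed in all 6 fits and the other 12 in 1 to 3.

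Marker genes were read beside these results. All 10 osteoblast markers on the array were above background on all 6 arrays, with a summed signal of 193500 to 221900 on De-HA arrays and 152400 to 183400 on FeMnSi arrays, and 5 rose (Phex by 1.66, with Ibsp, Alpl, Sp7 and Runx2) while Spp1 fell by 1.09. Marker lists were short, and 6 of 10 osteoblast and 3 of 7 myeloid genes tested were called, against 10.7% of all genes. Of 7 endothelial markers, 2 were above background on all 6 arrays, 4 (Cdh5, Emcn, Tek and Tie1) were on no array, and 1, Kdr, rose by 0.41 (adjusted p = 0.0272 in limma's fit). Their summed signal was 552.2 to 616.2 on De-HA arrays and 436.7 to 449.2 on FeMnSi arrays. Of 7 myeloid markers, 6 were on all 6 arrays, with sums of 2688 to 2978 and 2015 to 2859 on De-HA and FeMnSi arrays, and 2 rose (Adgre1 by 0.77 and Ptprc by 0.55) while Lyz2 fell by 0.39. Adipocyte markers summed to 71.1 to 83.9 on De-HA arrays and 138.7 to 165.8 on FeMnSi arrays: Fabp4 fell by 1.99 (adjusted p = 0.0017), and Adipoq, Cidec and Lep were on no array. Fabp4 by itself had 33.3, 25.8 and 23.9 on De-HA arrays and 107.3, 121.1 and 100 on FeMnSi arrays. The other adipocyte markers tested, Plin1 and Cfd, had differences of 0.29 and 0.38 and did not pass. Epithelial markers summed to 167.8 to 190.4 and 150.3 to 158.9 on De-HA and FeMnSi arrays, neural markers to 396.7 to 464.0 and 482.8 to 514.0, and none of the 4 epithelial and 6 neural genes tested passed. The smallest p-values there were those of Epcam (0.88, adjusted p = 0.0514) and Cdh1 (0.41, 0.104), and of Tubb3 (-0.36, 0.0691) and Gfap (0.32, 0.205). Of the 11 marker genes that passed, Phex, Spp1 and Fabp4 also did with the slide as a block, where 1.16% of all genes passed. All 11 kept their sign within slide 1, at 0.615 to 1.11 times the difference over all arrays. After quantile normalization Ptprc had an adjusted p of 0.119. The part of any of these in the Hox values was not tested.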

How the data were processed

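MC3T3-E1 RNA from 3 De-HA and 3 FeMnSi samples was read on 1-colour Agilent arrays. The authors deposited scanner tables of intensity values per spot and a series matrix of log2 values. The submitters' processing notes name the scanner software as Agilent Feature Extraction, version 11.0.1.1. How the deposited log2 values were normalized and filtered is not given in these sources, and each array's log2 column correlated with the scanner values at 0.997 or above.

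For each array, log2 of the deposited processed signal was taken minus its 75th percentile. Control and outlier spots were left out, and spots of a probe were averaged. Probes were named through their RefSeq accession (69.1% had a symbol), the brightest probe stood for a gene, and genes above background on at least 3 of 6 arrays were tested (15535 genes). limma 3.58.1 in R 4.3.3 (lmFit, eBayes) compared the groups at a threshold of 0.05, and p-values were adjusted by Benjamini-Hochberg over the whole table. The fit was tested on simulated data. Replicate spots within an array varied by 3.77% to 5.25% (median CV), and the number of arrays limits the precision.

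The slide, inferred from the scan time, was tried as a block and within slide 1. The planned normexp used the spots' median signal in place of their mean, which the tables here do not hold. Samples of the same number correlated at 0.007, -0.106 and 0.115 in their deviations, so the numbers were not used as pairs. The members and gene lists were chosen with earlier results of these data known. Named genes were Hox genes with a detected probe, each with its value on every array, and from each list up to 6 genes past the threshold, or the 2 smallest p-values where none passed. Some genes are not reported here by name and enter the counts and medians only.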

Additional observations from a re-analysis of the deposited data

How the results depend on the processing

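The count of Hox genes past the threshold stayed at 0 except on the slide 1 arrays alone (1, Hoxc12, where the lone FeMnSi array is assumed to vary like the De-HA arrays), with the variance following brightness (1, Hoxc12) and with single arrays left out (0 to 6). The median Hox difference (0.15) was -0.00033 after quantile normalization, 0.065 with median scaling, -0.0059 with normexp, 0.00079 in the series matrix, 0.25 without the filter on dim probes, and -0.023 with a slide block or on slide 1 alone. Quantile normalization moved the median of all genes from 0.10 to -0.01. The 1669 genes called over all genes became 519 without the filter, 180 with the slide as a block, 36 on slide 1 alone, 693 with a replicate block (0 Hox genes) and 227 to 4611 with single arrays left out. Of all calls 60.1% were higher on De-HA, against 39.3% with quantile, 37.3% with median scaling, 40.6% with normexp and 41.3% in the series matrix. With the variance following brightness 2399 of all genes (15.4%) were called. Among genes above background on all 6 arrays 2001 (14.5%) were. Signs turned as follows, and the cause was not tested. Quantile gave Hoxa10 -0.018, Hoxa5 -0.099, Hoxa7 -0.00033, Hoxb8 -0.082 and Hoxc10 -0.023. Median scaling gave Hoxa10 -0.046, Hoxa5 -0.073 and Hoxa7 -0.057. Normexp gave Hoxa10 -0.026, Hoxa3 0.94, Hoxa5 -0.066, Hoxa7 -0.051, Hoxb8 -0.087, Hoxc10 -0.026 and Hoxc5 -0.0059. The series matrix gave Hoxa10 -0.017, Hoxa5 -0.097, Hoxb8 -0.081 and Hoxc10 -0.023. The slide as a block, and slide 1 alone, gave Hoxa10 -0.023, Hoxa4 0.11, Hoxa5 -0.11, Hoxa7 -0.20, Hoxb6 -0.15, Hoxb8 -0.55, Hoxc4 -0.13 and Hoxc9 -0.11. With single arrays left out, Hoxa10 ran from -0.025 to 0.11, Hoxa5 from -0.043 to 0.077, Hoxa7 from -0.19 to 0.14, Hoxb5 from -0.11 to 0.059, Hoxb8 from -0.14 to 0.51 and Hoxc10 from -0.16 to 0.33. The other 355 comparisons of single Hox genes with an alternative kept their direction and side of the threshold, and 9 newly passed it.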
